A study of Homo sapiens with 18 samples.

Results

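The insulin-like growth factor (IGF) axis was followed through 10 genes in LNCaP and C4-2 prostate cancer cells. The members were 3 receptors (IGF1R, INSR and IGF2R), 3 IGF-binding proteins (IGFBP2, IGFBP3 and IGFBP5), 3 adaptors that act inside the cell at the activated receptor (IRS1, IRS2 and GRB10) and the protease PAPPA. They were taken by gene symbol, with no threshold on their values, and are 10 of the 60675 genes in the count files. Earlier results of these data were known when they were chosen. IGF1 and IGF2 bind the receptor tyrosine kinase IGF1R, which shares its design with the insulin receptor INSR and can pair with it in hybrid receptors. The activated receptors recruit and phosphorylate IRS1 and IRS2, which couple them to PI3K-AKT signalling, whereas GRB10 binds the activated receptors and restrains them. Outside the cell, IGF-binding proteins hold the ligands, PAPPA cleaves certain binding proteins and so frees ligand, and IGF2R carries IGF2 to the lysosome. The axis is known for its part in the growth and survival of prostate cells, and androgen signalling is a known input to it.

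LNCaP is an androgen-sensitive line derived from a human prostate cancer metastasis, and C4-2 (named LNCaP:C42 in the sample titles) is a castration-resistant line derived from it. Each is a single cell line, so the replicates are samples of a line and not patients. All 18 libraries came from cells in phenol red-free medium with hormone-depleted serum, which is low in steroid hormones, and all received siRNA (10 nM). In each line, 3 libraries had scrambled siRNA (siScr) and vehicle, 3 had siScr and R1881, and 3 had siRNA pools against the histone demethylase genes KDM1A and KDM7A together (dual knockdown) and R1881. R1881 is a synthetic androgen and was given at 1 nM for 72 h. Dual knockdown libraries with vehicle were not analysed here, so the knockdown comparisons apply to R1881-treated cells alone. The labels of the 3 C4-2 vehicle libraries conflict, since C4-2 stands in the title and LNCaP in the field for the line, and the title was followed. Their mean correlation over all genes with the C4-2 R1881 libraries was 0.963, 0.962 and 0.927, against 0.873, 0.875 and 0.850 with the LNCaP vehicle libraries.

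Positions are those of the authors' annotation on GRCh38. IGF1R spans chr15:98648971-98964530 on the plus strand, INSR chr19:7112255-7294034 on the minus strand and IGF2R chr6:159969099-160113507 on the plus strand. IGFBP2 (chr2:216632828-216664436, plus strand) and IGFBP5 (chr2:216672105-216695525, minus strand) are neighbours that point towards each other, with 7.67 kb and no other annotated gene between them. IGFBP3 spans chr7:45912245-45921874 and GRB10 chr7:50590063-50793462, both on the minus strand. IRS1 spans chr2:226731317-226799759 and IRS2 chr13:109752698-109786568, both on the minus strand. PAPPA spans chr9:116153804-116402322 on the plus strand. Each value is a count over all annotated exons of a gene, so that splice forms such as those of INSR are pooled. Reads were counted without strand. IGF1R, INSR, IGF2R, IGFBP5, IRS2 and PAPPA overlap other annotated genes, whose summed counts over all libraries were at most 769, against 163236 for IGF2R, and 12 against 157 for PAPPA. IGFBP2, IGFBP3, IRS1 and GRB10 overlap none.

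Promoter windows are shown, so that their letters can be set beside the R1881 responses, for the members that moved furthest in either line. These were taken among the 9 members that passed the filter on low counts in each line, which PAPPA did not. For members with several windows, 1 is printed. The windows are RefSeq sequences (GRCh38.p14) from 250 bases before to 50 bases after an annotated start, written 5′ to 3′ on the gene's strand. All 10 members matched, with 16 windows in all because IGFBP2 and GRB10 have several starts. Capitals mark the GC box GGGCGG and the androgen receptor hexamer AGAACA, each on either strand and with overlapping matches included.
IGF1R (chr15:98648289-98648588, plus strand): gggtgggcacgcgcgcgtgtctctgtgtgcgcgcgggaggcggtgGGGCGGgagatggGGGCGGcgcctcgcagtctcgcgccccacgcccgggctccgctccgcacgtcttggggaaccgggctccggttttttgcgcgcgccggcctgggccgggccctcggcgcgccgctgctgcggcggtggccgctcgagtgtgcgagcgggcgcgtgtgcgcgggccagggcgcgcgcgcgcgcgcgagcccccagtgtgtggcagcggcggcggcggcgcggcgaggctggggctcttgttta
GRB10 (chr7:50793404-50793703, minus strand): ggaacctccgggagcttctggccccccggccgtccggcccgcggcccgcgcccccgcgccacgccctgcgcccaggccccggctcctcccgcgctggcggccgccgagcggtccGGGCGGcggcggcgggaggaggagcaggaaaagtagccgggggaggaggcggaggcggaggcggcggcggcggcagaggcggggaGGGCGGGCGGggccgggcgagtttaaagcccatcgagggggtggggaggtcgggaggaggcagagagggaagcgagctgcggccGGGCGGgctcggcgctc
IRS1 (chr2:226799771-226800070, minus strand): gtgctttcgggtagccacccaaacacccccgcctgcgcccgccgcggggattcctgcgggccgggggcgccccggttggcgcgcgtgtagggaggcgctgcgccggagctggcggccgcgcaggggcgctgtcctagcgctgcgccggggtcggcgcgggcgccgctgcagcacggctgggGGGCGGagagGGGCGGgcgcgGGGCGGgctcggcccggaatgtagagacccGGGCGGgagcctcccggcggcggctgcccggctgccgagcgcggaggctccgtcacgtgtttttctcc
IRS2 (chr13:109786534-109786833, minus strand): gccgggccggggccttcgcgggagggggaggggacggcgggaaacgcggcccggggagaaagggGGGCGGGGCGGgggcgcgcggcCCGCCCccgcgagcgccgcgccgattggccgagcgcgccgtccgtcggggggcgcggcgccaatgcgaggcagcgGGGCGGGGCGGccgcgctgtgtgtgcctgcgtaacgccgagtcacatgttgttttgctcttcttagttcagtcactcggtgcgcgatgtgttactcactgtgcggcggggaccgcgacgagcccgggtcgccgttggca
IGFBP3 (chr7:45921223-45921522, minus strand): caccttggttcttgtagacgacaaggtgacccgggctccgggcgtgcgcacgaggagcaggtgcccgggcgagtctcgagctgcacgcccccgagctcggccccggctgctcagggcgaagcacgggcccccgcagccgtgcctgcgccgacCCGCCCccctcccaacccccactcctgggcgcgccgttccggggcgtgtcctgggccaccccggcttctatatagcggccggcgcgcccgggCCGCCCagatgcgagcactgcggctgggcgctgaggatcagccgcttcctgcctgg
IGFBP2 (chr2:216632578-216632877, plus strand): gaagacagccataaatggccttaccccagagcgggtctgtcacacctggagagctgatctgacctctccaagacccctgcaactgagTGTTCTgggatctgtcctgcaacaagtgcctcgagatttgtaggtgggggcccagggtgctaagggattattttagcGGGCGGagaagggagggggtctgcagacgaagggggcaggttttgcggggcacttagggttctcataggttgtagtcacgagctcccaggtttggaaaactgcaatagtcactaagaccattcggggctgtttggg

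The printed windows of IGF1R, GRB10, IRS1, IRS2 and IGFBP3 were GC-rich, at 79.7%, 81.0%, 79.3%, 75.7% and 74.7% G or C, against a median of 58.7% over all 35116 promoter windows. They held 2, 4, 4, 5 and 2 GC boxes in that order. The other 4 windows of GRB10 were at 33.7%, 48.7%, 68% and 81.7% G or C, and only the last of them held GC boxes, 3 in number. The printed window of IGFBP2 was below that median, at 55.3% G or C with 1 GC box, and its other windows were at 70% and 56.7%. The GC box occurred in 10 of the 16 member windows and in 45% of all windows. The hexamer AGAACA was found in 2 windows, both of IGFBP2, and in 14.8% of all windows. The full palindrome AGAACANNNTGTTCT was in no member window and in 1 window of all 35116. These matches are descriptions of 300 bases at each start and say nothing of elements elsewhere.

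Total counts ranged from 10485096 to 20154243 in 17 libraries and were 3182604 in the third C4-2 vehicle library. That library and the first C4-2 dual knockdown library stood further from their replicates than the others. Where leaving out either of them moved a member across the threshold, both values are given. Genes other than the members are given with all libraries only. KDM1A fell in the dual knockdown groups by 1.05 ± 0.064 (log2 fold change, log2FC, ± SE) in LNCaP and by 3.12 ± 0.11 in C4-2, with adjusted p of 1.81e-09 and 3.98e-13. KDM7A fell by 0.93 ± 0.087 and 2.51 ± 0.11 (adjusted p = 2.64e-06 and 1.08e-11), and the lines differed in the loss of both genes (adjusted p = 2e-11 and 2.76e-08). The androgen-induced genes KLK3, TMPRSS2 and FKBP5 rose with R1881 in both lines, by a log2FC of 3.11 to 4.24. All 8 luminal prostate markers were at or above 1 CPM (counts scaled to a common library size) in every group. The summed level of 3 basal markers was at most 1.60 CPM, of 3 neuroendocrine markers 3.74 CPM and of 3 endothelial markers 20.8 CPM, nearly all VWF. The 3 immune markers summed to 2.04 to 3.52 CPM in the C4-2 vehicle libraries, chiefly PTPRC, and to at most 0.734 CPM elsewhere. The 4 stromal markers, led by COL1A1, summed to 16.59 to 17.95 CPM with vehicle and 7.54 to 11.9 CPM with R1881 in LNCaP, and to 30.6 to 39.3 and 18.5 to 25.7 CPM in C4-2. With dual knockdown they summed to 10.6 to 13.6 CPM in LNCaP and 28.98 to 38.25 CPM in C4-2, where all libraries lay above the siScr R1881 libraries. The part of these markers in the results below was not tested. In bulk RNA, fewer cells that express a gene and less RNA per cell cannot be told apart.

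Levels are given as CPM, scaled for library composition over the 18 libraries, with SD over the 3 libraries of a group. Adjusted p-values come from edgeR's quasi-likelihood test, with the Benjamini-Hochberg method applied over all genes tested in a comparison. A gene is said to have risen, fallen or changed at an adjusted p under 0.05, and to be differentially expressed where its log2FC was also at least 1 in either direction.

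The first question was how the axis responds to androgen. In LNCaP, R1881 raised IGF1R about as far as it lowered GRB10, each by close to 3 on the log2 scale, and it raised IGF2R, IGFBP3, IRS1 and IRS2 and lowered IGFBP2. In C4-2, IGF1R rose by a like amount, IRS1 and IRS2 rose, and GRB10, INSR, IGFBP2 and IGFBP3 fell. Of the 10 members, 9 passed the filter on low counts in each line and PAPPA did not. In LNCaP 5 rose and 2 fell, while of all 17162 genes tested 46.4% changed, 23.5% upwards and 22.9% downwards. In C4-2 3 rose and 4 fell, while of all 16965 genes tested 33.2% changed, 17.3% upwards and 15.8% downwards. Differential expression was met by 3 members in LNCaP and 5 in C4-2, against 11.9% and 8.76% of all genes tested. The median log2FC of the tested members was 0.46 in LNCaP and −0.15 in C4-2, beside −0.042 and −0.018 over all genes. The size of the response differed between the lines for 6 members, 3 of them higher and 3 lower in C4-2. Of all 18684 genes in that test 14.2% differed, 6.17% higher and 8% lower, and 4.39% by at least 2-fold.

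**Figure D1:**
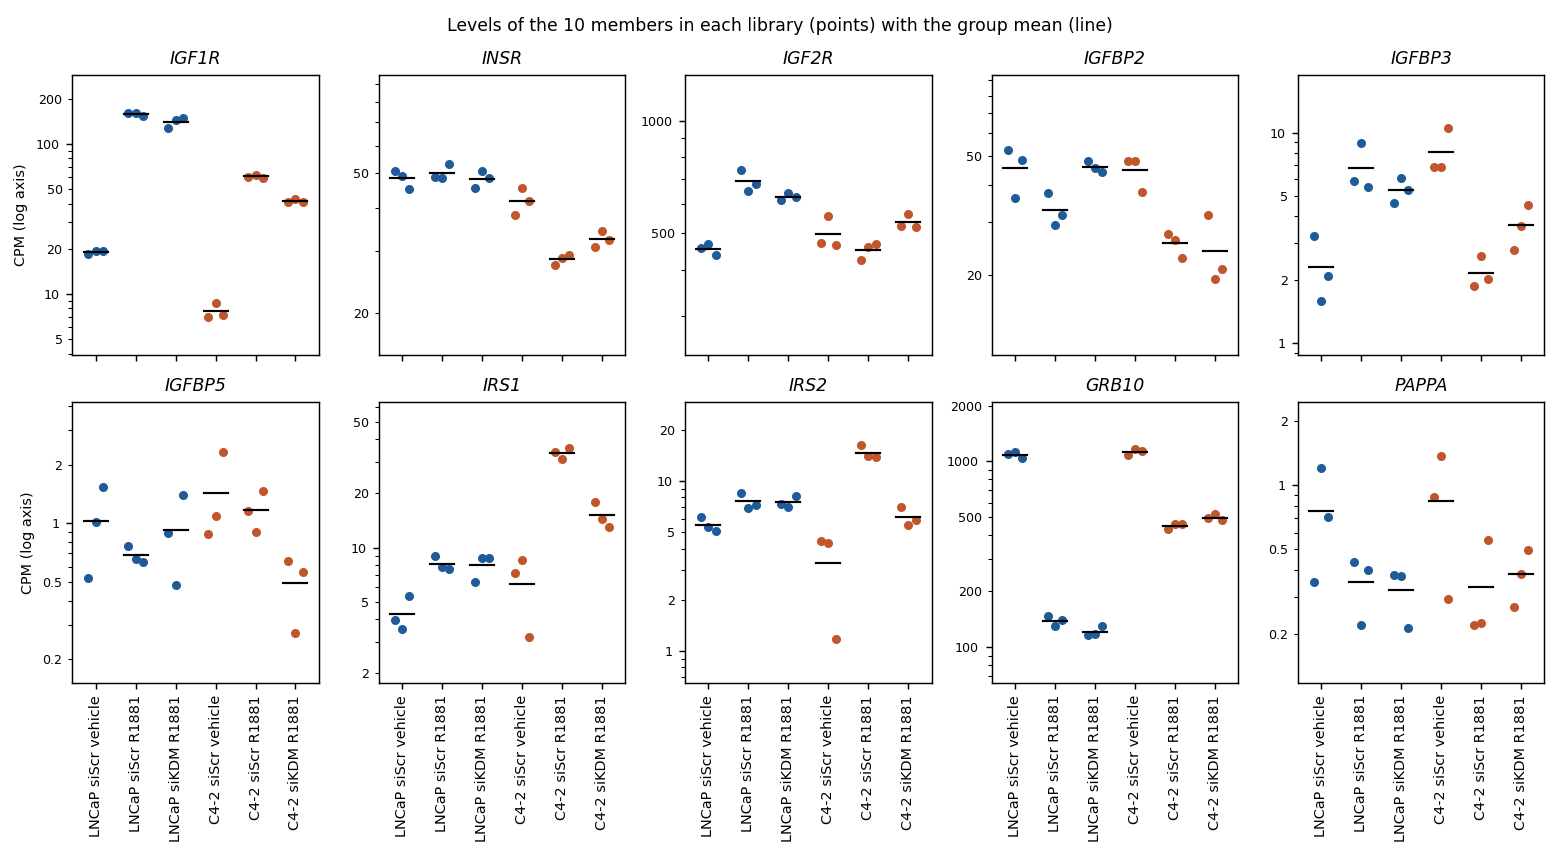
CPM of each member (log axis, one panel per gene) in the 18 libraries, with LNCaP in blue and C4-2 in orange, points for the 3 libraries of a group and a line for their mean. siKDM stands for dual knockdown. IGF1R is low with vehicle and high with R1881 in both lines, GRB10 shows the opposite order, and IRS1 and IRS2 are highest in C4-2 siScr cells with R1881.

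IGF1R, the receptor through which IGF1 and IGF2 signal, was at 18.5, 19.4 and 19.3 CPM with vehicle and at 161, 160 and 153 CPM with R1881 in LNCaP. C4-2 had 7.04, 8.71 and 7.28 CPM with vehicle and 60.4, 62.4 and 59.5 CPM with R1881. The vehicle and R1881 libraries did not overlap in either line. The log2FC was 3.03 ± 0.074 in LNCaP (adjusted p = 2.37e-19), an 8.17-fold rise, and 2.97 ± 0.11 in C4-2 (adjusted p = 6.11e-14), a 7.81-fold rise. The difference between these responses, C4-2 minus LNCaP, was −0.08 with a 95% confidence interval of −0.34 to 0.17 (adjusted p = 0.745).

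INSR, the insulin receptor, was at 50.8, 49.2 and 45.2 CPM with vehicle and at 48.7, 48.4 and 53.1 CPM with R1881 in LNCaP, groups that overlap. Its log2FC in LNCaP was 0.03 ± 0.077 (adjusted p = 0.742). In C4-2, INSR was at 38.1, 45.4 and 41.7 CPM with vehicle and at 27.4, 28.7 and 29.4 CPM with R1881. There all R1881 libraries lay below all vehicle libraries, and the log2FC was −0.55 ± 0.1 (adjusted p = 0.000318). The responses differed by −0.60 ± 0.12 between the lines (adjusted p = 0.000688). Per kilobase of exon, the ratio of IGF1R to INSR in a library was 0.305 ± 0.0245 with vehicle and 2.44 ± 0.185 with R1881 in LNCaP (mean ± SD, n = 3). In C4-2 the same ratio was 0.142 ± 0.00664 and 1.65 ± 0.0775. INSR was thus the more abundant of both receptor transcripts with vehicle, and IGF1R the more abundant with R1881, in either line.

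IGF2R, the scavenging receptor for IGF2, was at 457, 469 and 438 CPM with vehicle and at 740, 648 and 678 CPM with R1881 in LNCaP. It rose there by 0.58 ± 0.061 (adjusted p = 5.47e-08), with groups that did not overlap. C4-2 held 471, 557 and 465 CPM with vehicle and 425, 460 and 468 CPM with R1881, where the groups overlapped. The log2FC in C4-2 was −0.15 ± 0.085 (adjusted p = 0.197). The responses differed by −0.74 ± 0.1 (adjusted p = 4.88e-06).

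**Figure D2:**
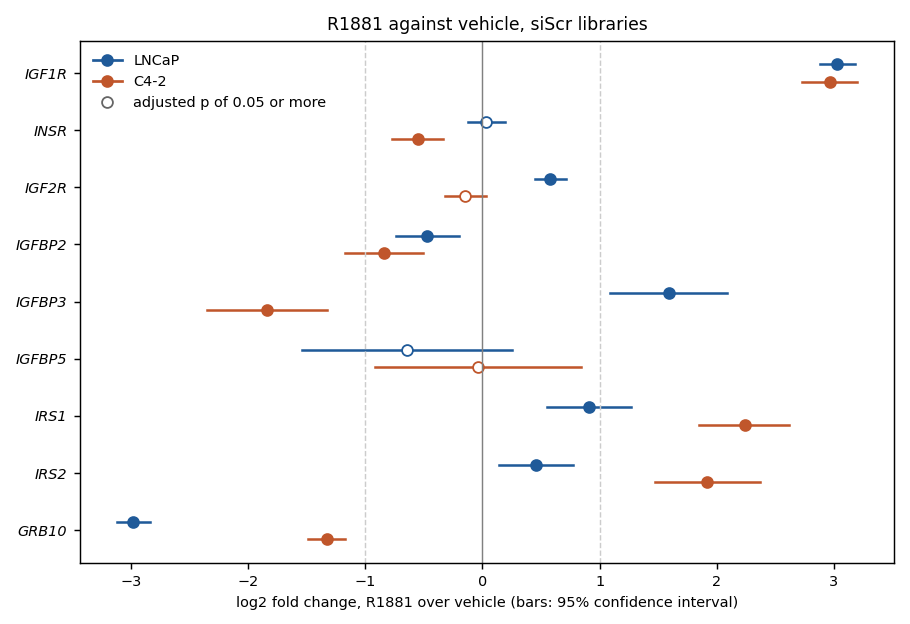
Log2FC of 9 members for R1881 against vehicle in siScr cells of LNCaP (blue) and C4-2 (orange), with 95% confidence intervals, open points for an adjusted p of 0.05 or more and dashed lines at a 2-fold change. IGF1R lies near 3 in both lines, IGFBP3 lies at 1.59 in LNCaP and −1.84 in C4-2, and GRB10 lies at −2.98 and −1.33.

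Among the binding proteins, IGFBP3 moved in opposite directions in the lines. IGFBP3 is the main carrier of IGFs in serum. It was at 3.24, 1.58 and 2.09 CPM with vehicle and at 5.91, 8.93 and 5.52 CPM with R1881 in LNCaP, a rise of 1.59 ± 0.24 (adjusted p = 1.63e-05). The C4-2 levels were 6.88, 6.87 and 10.5 CPM with vehicle and 1.87, 2.59 and 2.02 CPM with R1881, and it fell by 1.84 ± 0.24 on the log2 scale (adjusted p = 7.63e-06). The groups did not overlap in either line. The responses differed by −3.43 ± 0.36 (adjusted p = 7.83e-08), the largest difference between the lines among the members. These levels rest on 33 to 133 counts per library. Without the third C4-2 vehicle library, the log2FC in C4-2 was −1.67 ± 0.22 and the difference −3.28 ± 0.35 (adjusted p = 5.33e-06 and 6.47e-08).

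IGFBP2, a binding protein secreted by prostate epithelial cells, fell with R1881 in both lines. In LNCaP it was at 52.3, 36.2 and 48.4 CPM with vehicle and at 37.5, 29.4 and 31.8 CPM with R1881, groups that overlap by 1 library on each side. Its log2FC was −0.47 ± 0.13 there (adjusted p = 0.00653). C4-2 had 48.3, 48.1 and 37.9 CPM with vehicle and 27.4, 26.2 and 22.7 CPM with R1881, without overlap, and the log2FC was −0.84 ± 0.15 (adjusted p = 0.000486). The difference between these responses was −0.38 with an interval of −0.88 to 0.12 (adjusted p = 0.337). IGFBP5, the neighbour of IGFBP2, was between 0.525 and 2.33 CPM in all 12 vehicle and R1881 libraries of siScr cells, from 6 to 28 counts. Its log2FC was −0.64 ± 0.43 in LNCaP and −0.04 ± 0.42 in C4-2 (adjusted p = 0.233 and 0.961), with 95% confidence intervals of −1.54 to 0.25 and −0.92 to 0.84.

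GRB10, the adaptor that restrains the insulin and IGF receptors, was the most abundant member per kilobase with vehicle. It was at 1095, 1131 and 1038 CPM with vehicle and at 147, 130 and 140 CPM with R1881 in LNCaP, a fall of 7.90-fold. In C4-2 the vehicle libraries stood at 1087, 1160 and 1142 CPM and the R1881 libraries at 432, 459 and 461 CPM, a fall of 2.51-fold. The groups were widely separated in both lines, with log2FC of −2.98 ± 0.068 and −1.33 ± 0.076 (adjusted p = 8.74e-20 and 4.02e-11). With vehicle the lines differed by 0.05 on the log2 scale, with a 95% confidence interval of −0.08 to 0.19 (adjusted p = 0.495). The responses differed by 1.64 ± 0.092 (adjusted p = 5.07e-13).

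IRS1 and IRS2, the docking proteins that carry the receptor signal to PI3K, rose in both lines and more in C4-2. IRS1 was at 3.94, 3.53 and 5.38 CPM with vehicle and at 8.97, 7.84 and 7.58 CPM with R1881 in LNCaP. In C4-2 it went from 7.20, 8.53 and 3.20 CPM with vehicle to 34.0, 30.9 and 35.7 CPM with R1881. No library of one group overlapped the other in either line. The log2FC was 0.91 ± 0.18 in LNCaP and 2.24 ± 0.18 in C4-2 (adjusted p = 0.000185 and 5.57e-08), and the responses differed by 1.32 ± 0.28 (adjusted p = 0.0017). IRS2 was at 6.13, 5.33 and 5.05 CPM with vehicle and at 8.53, 6.96 and 7.24 CPM with R1881 in LNCaP. In C4-2, IRS2 stood at 4.45, 4.30 and 1.17 CPM with vehicle and at 16.2, 14.1 and 13.8 CPM with R1881. Its log2FC was 0.46 ± 0.15 in LNCaP and 1.92 ± 0.21 in C4-2 (adjusted p = 0.0166 and 1.12e-06), with a difference of 1.45 ± 0.27 (adjusted p = 0.000385). The lowest C4-2 vehicle values, 11 counts of IRS1 and 4 of IRS2, belonged to the third library, the shallowest. Without it the log2FC in C4-2 was 2.09 for IRS1 and 1.75 for IRS2, and the differences between the lines were 1.17 and 1.27 (adjusted p = 0.000572 and 8.74e-05). The IRS2 rise in LNCaP missed the threshold when the first R1881 library (adjusted p = 0.0883) or the third vehicle library was left out.

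PAPPA, the protease, was at or near the detection limit, with 1 to 26 counts per library. In LNCaP it was at 0.350, 1.21 and 0.714 CPM with vehicle and at 0.438, 0.220 and 0.402 CPM with R1881. The C4-2 levels were 0.880, 1.37 and 0.291 CPM with vehicle and 0.220, 0.225 and 0.551 CPM with R1881. The groups overlapped in both lines. In a fit of all 18 libraries, where PAPPA passed the filter, its log2FC was −1.12 ± 0.52 in LNCaP and −1.57 ± 0.53 in C4-2, with adjusted p of 0.0885 and 0.0229. With no filter in the fits of each line, the adjusted p was 0.179 and 0.0545. In the C4-2 fit, PAPPA passed the filter once either library that stood apart was left out. Its log2FC with R1881 was −1.76 ± 0.5 (adjusted p = 0.00905) without the third vehicle library. Without the first dual knockdown library it was −1.57 ± 0.53 (adjusted p = 0.0255).

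The order of the members per kilobase of exon changed with R1881. With vehicle the order in LNCaP began with GRB10 (109 CPM per kb), IGF2R (30.5), IGFBP2 (9.57), INSR (4.63) and IGF1R (1.41), and no neighbours among these overlapped. IRS2, IGFBP3 and IRS1 followed at 0.676, 0.503 and 0.430 CPM per kb, with libraries that overlapped. With R1881 it began with IGF2R (46.2 CPM per kb), GRB10 (14.0), IGF1R (11.7), IGFBP2 (6.91) and INSR (4.79), again without overlap of neighbours. In C4-2 with R1881 the order was GRB10 (45.3 CPM per kb), IGF2R (30.2), IGFBP2 (5.34), IGF1R (4.50), IRS1 (3.37), INSR (2.73) and IRS2 (1.804). IGFBP3, IGFBP5 and PAPPA closed that order at 0.472, 0.182 and 0.0287 CPM per kb.

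The second question was how losing KDM1A and KDM7A alters the axis in R1881-treated cells. In C4-2, IRS1, IRS2 and IGFBP5 fell by more than 2-fold, IGF1R fell by 1.47-fold, and IGF2R and IGFBP3 rose. In LNCaP, IGFBP2 alone changed, and it rose. Of the 9 tested members, 1 rose and none fell in LNCaP, where 15.1% of all genes changed, 8.78% upwards and 6.34% downwards. In C4-2 2 rose and 4 fell, where 24.3% of all genes changed, 13.1% upwards and 11.2% downwards. No member was differentially expressed in LNCaP and 3 were in C4-2, against 0.315% and 4.06% of all genes. The median log2FC of the tested members was −0.04 in LNCaP and −0.09 in C4-2, beside 0.001 and 0.005 over all genes. The siScr R1881 libraries also served as the R1881 group above, so that both sets of comparisons share them. The knockdown response differed between the lines for 6 members, 3 of them higher and 3 lower in C4-2. Of all 18684 genes 11.2% differed, 7.1% higher and 4.08% lower, and 2.04% by at least 2-fold. The stromal markers above moved with dual knockdown in C4-2, and their part in these changes was not tested.

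**Figure D3:**
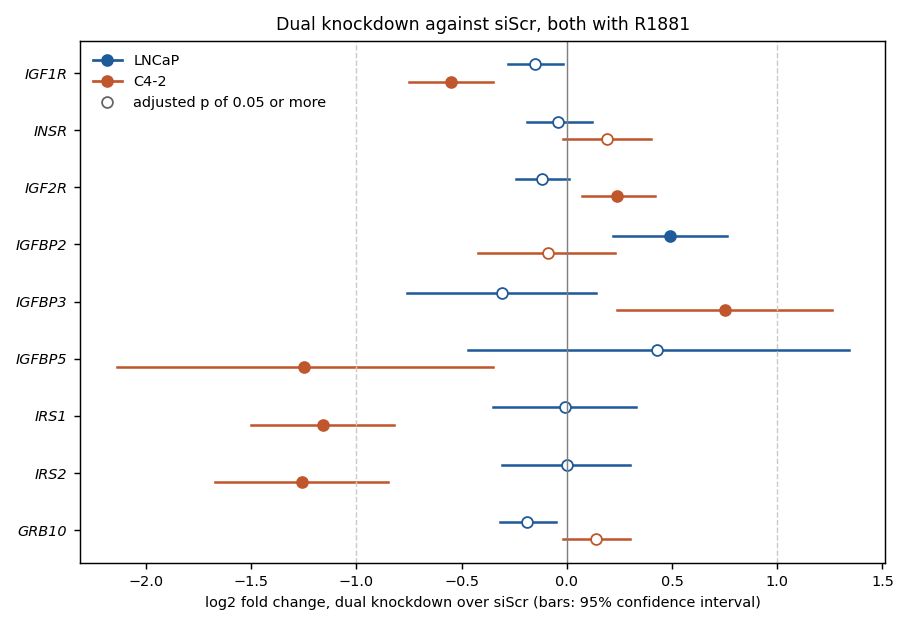
Log2FC of 9 members for dual knockdown against siScr, both with R1881, in LNCaP (blue) and C4-2 (orange), with 95% confidence intervals and open points for an adjusted p of 0.05 or more. In LNCaP all points but IGFBP2 are open, and in C4-2 IRS1, IRS2 and IGFBP5 lie below −1.

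IGF1R was at 127, 145 and 148 CPM in LNCaP dual knockdown cells, all below the siScr libraries, with a log2FC of −0.15 ± 0.063 (adjusted p = 0.108). The C4-2 dual knockdown libraries had 40.8, 43.2 and 40.9 CPM, also below all siScr libraries and above all vehicle libraries, with a log2FC of −0.55 ± 0.094 (adjusted p = 0.000255). The responses differed by −0.37 ± 0.1 (adjusted p = 0.0159). The ratio of IGF1R to INSR per kilobase was 0.991 ± 0.0255 in C4-2 dual knockdown cells and 2.24 ± 0.107 in LNCaP dual knockdown cells. INSR itself was at 45.4, 50.9 and 48.5 CPM in LNCaP and at 30.9, 34.4 and 32.3 CPM in C4-2. Its log2FC of −0.04 ± 0.076 and 0.19 ± 0.1 did not pass the test (adjusted p = 0.813 and 0.197).

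IGF2R was at 613, 643 and 624 CPM in LNCaP dual knockdown cells (log2FC = −0.12 ± 0.061, adjusted p = 0.207). It stood at 523, 564 and 520 CPM in C4-2, above all siScr R1881 libraries, with a log2FC of 0.24 ± 0.084 (adjusted p = 0.0406). That rise missed the threshold without the second or the third dual knockdown library or any 1 of the siScr R1881 libraries, with an adjusted p of up to 0.164. The difference between the lines was 0.38 ± 0.1 (adjusted p = 0.0123).

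IRS1 and IRS2 had the lowest adjusted p of the members with dual knockdown in C4-2, where both fell. IRS1 was at 17.9, 14.4 and 13.0 CPM, against 30.9 to 35.7 CPM in siScr cells, and its log2FC was −1.16 ± 0.16 (adjusted p = 7.06e-05). IRS2 was at 7.01, 5.49 and 5.92 CPM, against 13.8 to 16.2 CPM in siScr cells, with a log2FC of −1.26 ± 0.2 (adjusted p = 0.000117). Neither gene overlapped its siScr libraries in C4-2, and both stood above every C4-2 vehicle library. In LNCaP dual knockdown cells IRS1 was at 6.46, 8.71 and 8.69 CPM and IRS2 at 7.29, 7.0 and 8.16 CPM, both overlapping the siScr libraries. The LNCaP log2FC was −0.01 for IRS1, with an interval of −0.35 to 0.33, and 0.00 for IRS2, with an interval of −0.31 to 0.30. The responses differed between the lines by −1.12 ± 0.25 for IRS1 and −1.24 ± 0.25 for IRS2 (adjusted p = 0.0048 and 0.00186). KDM1A was left at 47.7% of its siScr level in LNCaP and 11.6% in C4-2, and KDM7A at 51.7% and 17.6%. The part of this unequal loss in the differences between the lines was not tested.

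GRB10 was at 116, 117 and 130 CPM in LNCaP dual knockdown cells, just below the lowest siScr library, with a log2FC of −0.19 ± 0.066 (adjusted p = 0.0584). It stood at 496, 518 and 482 CPM in C4-2, above the siScr libraries, with a log2FC of 0.14 ± 0.075 (adjusted p = 0.189). The responses differed by 0.35 ± 0.093 (adjusted p = 0.0133).

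Among the binding proteins, IGFBP2 was at 48.2, 45.5 and 44.1 CPM in LNCaP dual knockdown cells, above all siScr R1881 libraries, and rose by 0.49 ± 0.13 (adjusted p = 0.0184). The rise missed the threshold without the first or the second dual knockdown library or the second or the third siScr R1881 library, with an adjusted p of up to 0.0829. C4-2 had 31.8, 19.3 and 20.9 CPM (log2FC = −0.09 ± 0.15, adjusted p = 0.725). The high value belonged to the first library, which stood apart, and without it the C4-2 log2FC was −0.34 ± 0.12 (adjusted p = 0.0347). The difference between the lines was −0.56 ± 0.24 (adjusted p = 0.152) with that library and −0.81 ± 0.18 without it (adjusted p = 0.00356). IGFBP3 was at 4.63, 6.10 and 5.33 CPM in LNCaP, with a log2FC of −0.31 ± 0.22 (adjusted p = 0.377). It stood at 2.78, 3.62 and 4.55 CPM in C4-2 and rose by 0.75 ± 0.24 (adjusted p = 0.0304), with an adjusted p of up to 0.161 without the second or the third dual knockdown library or the first or the third siScr R1881 library. The IGFBP3 responses differed by 1.08 ± 0.35 between the lines (adjusted p = 0.0431), a call that was lost without any 1 of 11 libraries. IGFBP5 was at 0.887, 0.481 and 1.39 CPM in LNCaP and at 0.642, 0.274 and 0.561 CPM in C4-2, where it fell by 1.25 ± 0.43 on the log2 scale (adjusted p = 0.0399). That fall rests on 5 to 24 counts per library and missed the threshold without the second or the third dual knockdown library, any 1 of the siScr R1881 libraries or the second vehicle library (adjusted p up to 0.166). It also missed it with DESeq2 (adjusted p = 0.0683) and with no filter on low counts (adjusted p = 0.0613). PAPPA had 4 to 8 counts in every dual knockdown library, at 0.213 to 0.499 CPM.

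The third question was how the axis differs between C4-2 and the line it was derived from. With vehicle, C4-2 had less IGF1R, INSR and IRS2 and more IGFBP3 and IRS1 than LNCaP, and with R1881 it had less IGF1R, INSR, IGF2R and IGFBP3 and more IRS1, IRS2 and GRB10. All 10 members passed the filter in the fit of the 18 libraries. With vehicle 2 members were higher and 3 lower in C4-2, where 58.7% of all 18684 genes differed, 29.2% higher and 29.5% lower. With R1881 3 were higher and 4 lower, where 58.2% of all genes differed, 28.5% higher and 29.7% lower. The counts of members that differed at least 2-fold were 2 and 4, against 24.2% and 23.8% of all genes.

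IGF1R was lower in C4-2 by 1.29 ± 0.099 with vehicle and by 1.38 ± 0.072 with R1881, on the log2 scale (adjusted p = 1.1e-11 and 3.87e-15). In each condition every C4-2 library was below every LNCaP library. INSR differed by −0.21 ± 0.085 with vehicle, where the lines overlapped (adjusted p = 0.0319), and by −0.81 ± 0.083 with R1881 (adjusted p = 3.15e-09). IGF2R differed by 0.13 ± 0.071 with vehicle (adjusted p = 0.114) and by −0.61 ± 0.071 with R1881 (adjusted p = 3.36e-08).

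IGFBP3 changed sides. It was higher in C4-2 with vehicle (log2FC = 1.79 ± 0.26, adjusted p = 1.43e-06) and lower with R1881 (log2FC = −1.64 ± 0.25, adjusted p = 3e-06). The libraries of the lines overlapped in neither condition. IGFBP2 differed by 0.01 ± 0.17 with vehicle and by −0.37 ± 0.17 with R1881 (adjusted p = 0.969 and 0.0674). The R1881 difference of IGFBP2 passed the threshold in 5 of 8 other settings and without 1 of 4 libraries, among them the first C4-2 dual knockdown library (log2FC = −0.38, adjusted p = 0.0114). IGFBP5 differed by 0.19 ± 0.45 and 0.76 ± 0.44 (adjusted p = 0.74 and 0.142). PAPPA differed by 0.31 ± 0.48 and −0.14 ± 0.58 (adjusted p = 0.602 and 0.86), with intervals of −0.67 to 1.29 and −1.32 to 1.05.

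IRS1 was higher in C4-2 by 0.72 ± 0.21 with vehicle and by 2.04 ± 0.18 with R1881 (adjusted p = 0.0053 and 7.95e-10). IRS2 was lower there with vehicle (log2FC = −0.50 ± 0.21, adjusted p = 0.0411) and higher with R1881 (log2FC = 0.95 ± 0.18, adjusted p = 4.26e-05). The IRS1 difference with vehicle missed the threshold without the second C4-2 vehicle library (adjusted p = 0.0753). Without the third C4-2 vehicle library the vehicle difference of IRS2 was −0.32 (adjusted p = 0.108) and that of INSR −0.21 (adjusted p = 0.0502), which leaves 3 members with a difference. The vehicle difference of INSR also missed the threshold without the first C4-2 vehicle library (adjusted p = 0.245) or the first or the second LNCaP vehicle library. That of IRS2 missed it without any 1 of the LNCaP vehicle libraries or the second C4-2 R1881 library, with no filter (adjusted p = 0.0524) and with only the groups compared (adjusted p = 0.111). GRB10 differed by 1.69 ± 0.067 with R1881 (adjusted p = 8.82e-18), a 3.24-fold higher level in C4-2.

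**Figure D4:**
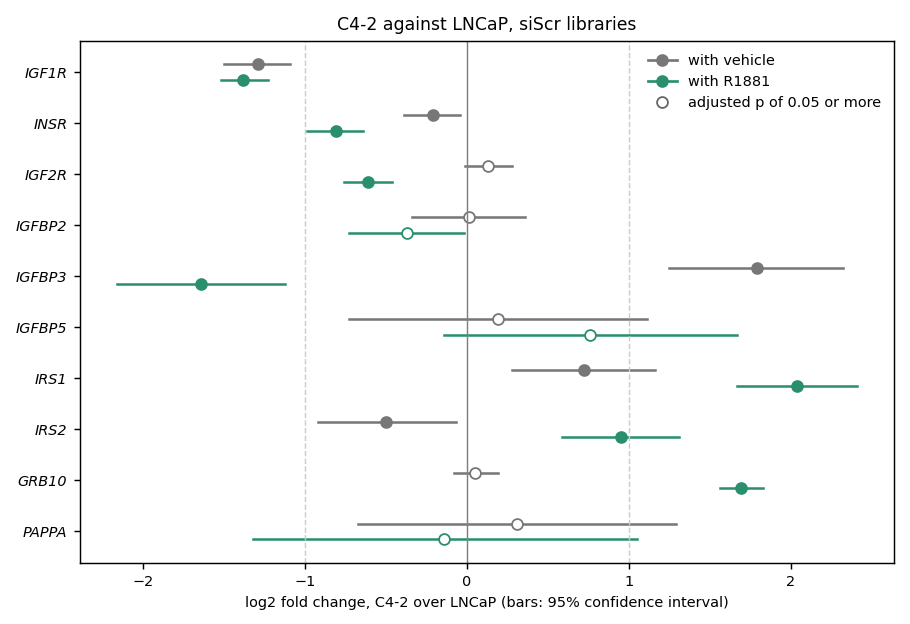
Log2FC of the 10 members for C4-2 against LNCaP in siScr cells with vehicle (grey) and with R1881 (green), with 95% confidence intervals and open points for an adjusted p of 0.05 or more. IGF1R lies below −1 in both conditions, IGFBP3 changes sign between them, and GRB10 differs with R1881 alone.

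The rest of the axis was taken from a list of 53 other genes, in roles that run from ligands to RNA-binding proteins. In LNCaP 42 of them were tested for R1881, of which 9 rose and 13 fell, and in C4-2 41 were tested, of which 11 rose and 10 fell. The median log2FC was −0.11 and −0.04. By role, 7 of 11 tested adaptors and phosphatases changed in LNCaP and 4 of 10 in C4-2, as did 5 of 9 and 5 of 8 PI3K-AKT genes and 5 and 6 of 13 downstream outputs, beside 46.4% and 33.2% of all genes. With dual knockdown 5 rose and 9 fell in LNCaP, and 6 rose and 6 fell in C4-2, beside 15.1% and 24.3% of all genes that changed. Between the lines 46 were tested, of which 18 were higher and 15 lower in C4-2 with vehicle, and 18 higher and 13 lower with R1881, beside 58.7% and 58.2% of all genes that differed. The R1881 response differed between the lines for 9 of the 46 and the dual knockdown response for 6, where 14.2% and 11.2% of all genes differed. For the 10 members the same counts were 6 and 6. The members were chosen with earlier results of these data known, so that these counts are a description.

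Among the ligands, IGF1 was nearly absent from LNCaP, with 5 counts over the 3 vehicle libraries and 14 over the 3 R1881 libraries. In C4-2 it was at 3.86 ± 0.375 CPM with vehicle and 10.4 ± 0.525 CPM with R1881, and it rose by 1.38 ± 0.16 (adjusted p = 9.61e-07). It remained at 12.3 ± 1.46 CPM with dual knockdown. IGF1 differed between C4-2 and LNCaP by 5.22 ± 0.53 with vehicle and 5.14 ± 0.4 with R1881. IGF2 was low in both lines and higher in C4-2 with vehicle, at 1.57 ± 0.167 against 0.567 ± 0.115 CPM (log2FC = 1.45 ± 0.39, adjusted p = 0.00238). No count of INS was found in any library, the largest of which held 20154243 counts.

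Of the carriers and proteases, IGFALS, which holds IGF and IGFBP3 in a ternary complex, fell with R1881 in LNCaP (log2FC = −1.81 ± 0.64, adjusted p = 0.024) from 35 counts over 3 libraries to 10. HTRA1, a protease of IGF-binding proteins, fell there by 1.26 ± 0.38 (adjusted p = 0.00996). PAPPA2, the relative of PAPPA, had 2 counts over the 3 LNCaP vehicle libraries and 5 over the R1881 libraries, against 20 and 64 in C4-2, where it rose by 1.30 ± 0.43 (adjusted p = 0.0252). STC1, an inhibitor of PAPPA, rose by 0.59 ± 0.18 in LNCaP and fell by 0.79 ± 0.15 in C4-2 (adjusted p = 0.0115 and 0.000375). Its responses differed by −1.39 ± 0.26 (adjusted p = 0.00054), and with vehicle it was higher in C4-2 by 1.77 ± 0.19. LRP1, an endocytic receptor that also binds IGFBP3, fell by 1.19 ± 0.11 in LNCaP (adjusted p = 3.55e-09) and was higher in C4-2 with R1881 by 1.47 ± 0.12.

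SOCS2, a suppressor of growth hormone signalling that also binds IGF1R, rose from 14.0 ± 2.08 to 58.3 ± 2.05 CPM with R1881 in LNCaP and from 0.334 ± 0.0585 to 20.9 ± 1.26 CPM in C4-2. The log2FC was 2.05 ± 0.094 and 5.87 ± 0.21 (adjusted p = 2.7e-14 and 2.35e-14), with a difference of 3.81 ± 0.26 (adjusted p = 2.13e-11). The C4-2 vehicle level rests on 14 counts over 3 libraries. It was lower in C4-2 than in LNCaP by 5.29 ± 0.21 with vehicle and 1.48 ± 0.098 with R1881. GRB14, a relative of GRB10, fell by 1.28 ± 0.36 with R1881 in LNCaP (adjusted p = 0.00548) and was 1.38 ± 0.31 higher in C4-2 with R1881. The IRS relative IRS4 had 585 counts over the LNCaP vehicle libraries and 464 over the R1881 libraries, with 2.71 to 17.0 CPM in single vehicle libraries, and 0 and 1 counts over the C4-2 libraries. Other differences between the lines lay in GAB1 (log2FC = −1.81 ± 0.15 with vehicle) and SH2B2 (1.13 ± 0.21 with R1881), both adaptors.

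Downstream, the kinase gene MTOR rose by 1.10 ± 0.059 with R1881 in LNCaP, from 109 to 237 CPM (adjusted p = 4.28e-13), and by 0.75 ± 0.082 in C4-2. FOXO3, a transcription factor that AKT holds out of the nucleus, was lower in C4-2 with vehicle by 1.53 ± 0.098 (adjusted p = 1.19e-12). Of the genes for IGF2 mRNA-binding proteins, IGF2BP3 was at 33.2 ± 3.85 CPM in C4-2 and 3.41 ± 1.03 CPM in LNCaP with vehicle (log2FC = 3.23 ± 0.16, adjusted p = 2.11e-15). IGF2BP1 had 431 counts over the LNCaP vehicle libraries and 1 over the C4-2 vehicle libraries. IGF2BP2 was the one gene of the list differentially expressed with dual knockdown. It rose in C4-2 from 0.734 ± 0.221 to 2.37 ± 0.498 CPM (log2FC = 1.69 ± 0.36, adjusted p = 0.00181), with a difference from LNCaP of 2.01 ± 0.56 (adjusted p = 0.0197). It also rose with R1881 in C4-2, by 1.55 ± 0.5 (adjusted p = 0.0224), and was lower there than in LNCaP with vehicle, by 1.58 ± 0.54. The C4-2 vehicle level of 0.184 ± 0.173 CPM rests on 10 counts over 3 libraries, the lowest of them at 0 CPM. H19, the non-coding neighbour of IGF2, had 42 counts over the C4-2 vehicle libraries and 2 over the LNCaP vehicle libraries.

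**Figure D5:**
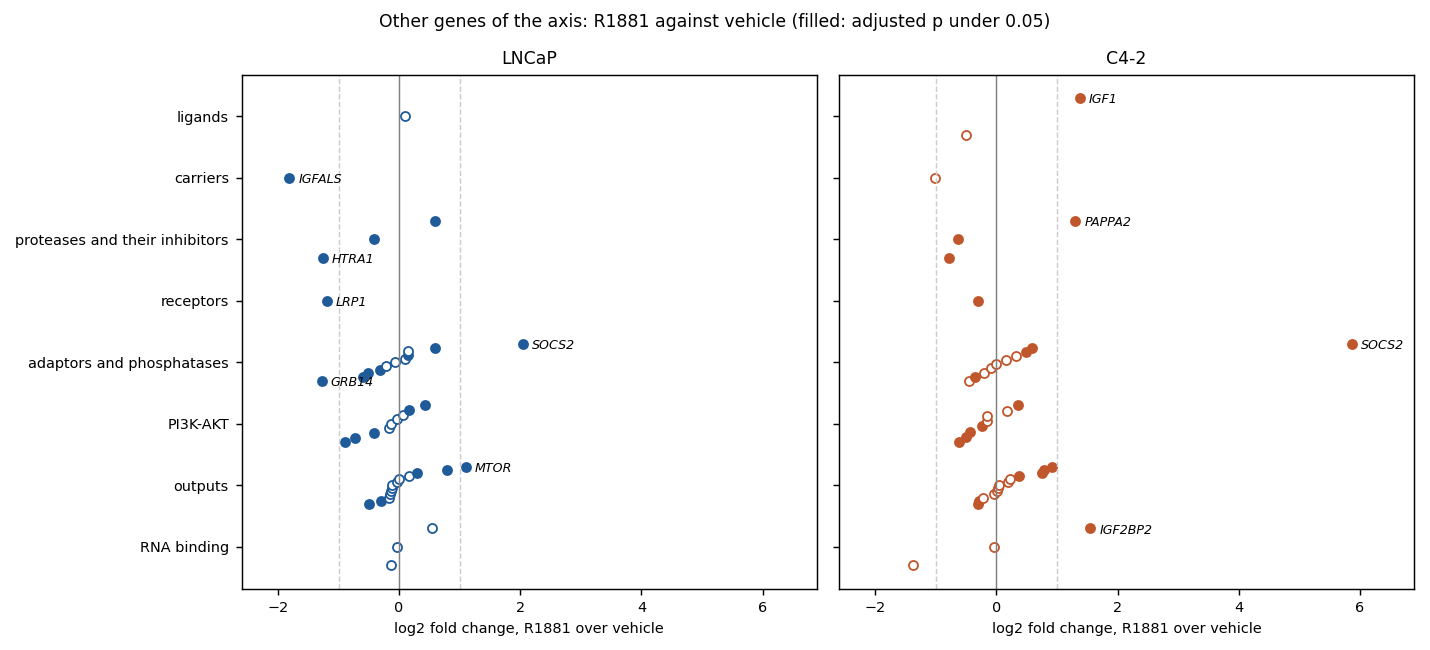
Log2FC of the other genes of the axis for R1881 against vehicle in LNCaP (left) and C4-2 (right), 1 point per tested gene by role, filled for an adjusted p under 0.05 and named where also changed at least 2-fold. SOCS2 has the largest rise in both lines, at 2.05 and 5.87, and most PI3K-AKT genes and outputs lie within 1 of no change.

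The genes whose pattern over the 18 libraries was most like that of IGF1R, GRB10, IRS1, IRS2 and IGFBP3 were found by Pearson's r of log2 CPM among genes with a mean of at least 1 CPM. The points share groups of 3 libraries, so that r is a description. For IGF1R they were MAF (r = 0.997), MCCC2 (0.992) and HOMER2 (0.991). For GRB10 they were C14orf132 (r = 0.988), ANTXR1 (0.987) and MAN1A1 (0.981). IRS1 was followed by FZD8 (r = 0.952), CDC42SE1 (0.940) and RUNX1 (0.936), and IRS2 by SHC1 (0.892), an adaptor on the axis list, TTC8 (0.888) and RTCA-AS1 (0.883). IGFBP3 had HJURP (r = 0.848), APOL6 (0.842) and APOL1 (0.801). Between members themselves, IGF1R and GRB10 had an r of −0.95.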

How the data were processed

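RNA Seq was performed on 18 libraries (LNCaP and C4-2, 3 groups each, n = 3). Per the submitters' processing notes, the paper and the file headers, the authors trimmed reads with Trim Galore, aligned them to GRCh38 with STAR and deposited the numbers of read pairs per Ensembl 83 gene as raw counts from featureCounts 1.5.0-p1, without normalisation, strand or multimapping options. Nothing in the sources says that the 3 samples of a group came from separate cultures, so that p-values measure only the spread between these samples, which may be technical. The vehicle is given as DMSO for the siRNA libraries and as ethanol in the culture methods, and which applied is not settled.

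Gene symbols came from GENCODE 29 (57055 of 60675 genes). Counts were fitted in R 4.3.3 with edgeR 4.0.16 (TMM factors, filterByExpr with a minimum count of 10 and a minimum total of 15, robust quasi-likelihood F-test, 2-sided) on the 9 libraries of a line for R1881 and dual knockdown, and on all 18 for differences between the lines. SE was |log2FC| divided by the square root of F. Depth sets the precision: genes under about 30 counts per library carry wide intervals. The 18 pairs of replicate libraries differed by 2.41 to 16.87 in chi-square per gene, above counting error, and none was a duplicate. The fits were tested on simulated data with the same spread in every gene and library. Genes with few counts were not changed in them, so that calls on such genes were not covered.

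The members and lists were chosen with earlier results of these data known. Named were the 10 members, 53 further axis genes (values where differentially expressed, and those of STC2), the targeted and androgen-induced check genes, and for each differentially expressed member the 3 genes most like it. Some of the results under this rule are not reported here. Alternatives were RLE factors, DESeq2 1.42.0, 2 other filters, other sets of libraries in the fit, a replicate block, removal of a GC trend, a 2-fold threshold, glmTreat against 1.2-fold and each library left out. Promoters were RefSeq's (GRCh38.p14). Figures used Python 3.11.15 and matplotlib 3.10.9.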

Additional observations from a re-analysis of the deposited data

Results flagged for a closer look

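The members were chosen with earlier results of these data known, so that counts of them are a description. Of all 18684 genes, 14.2% differed between the lines in the R1881 response and 11.2% in the dual knockdown response. Tests of the difference itself found 12 responses of members that differed between C4-2 and LNCaP, given as log2FC in C4-2 minus log2FC in LNCaP. For R1881 these were IGFBP3 at −3.43, IGF2R at −0.74, INSR at −0.60, IRS1 at 1.32, IRS2 at 1.45 and GRB10 at 1.64. IGFBP3 rose in LNCaP and fell in C4-2, IRS1 and IRS2 rose in both and further in C4-2, and GRB10 fell in both and further in LNCaP. All 6 passed the test on leaving out any 1 of the 18 libraries. For dual knockdown they were IRS2 at −1.24, IRS1 at −1.12, IGF1R at −0.37, GRB10 at 0.35, IGF2R at 0.38 and IGFBP3 at 1.08. IRS1 and IRS2 passed the test without any 1 library. IGFBP3 missed it without any 1 of 11 libraries (adjusted p up to 0.159), and passed without the first C4-2 dual knockdown, the second C4-2 R1881, the third C4-2 vehicle, the first or the third LNCaP R1881, or the first or the second LNCaP vehicle library. IGF1R missed it without the second or the third LNCaP dual knockdown library or the third LNCaP R1881 library (up to 0.0609). IGF2R missed it without the second C4-2 dual knockdown library or the first C4-2 R1881 library (up to 0.0562), and GRB10 without the second dual knockdown library of either line (up to 0.0531). KDM1A and KDM7A fell further in C4-2 than in LNCaP, by a difference of −2.04 and −1.56, and the part of that in the knockdown differences was not tested.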

How the results depend on the processing

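Over all alternatives, 1556 member results kept their direction and side of the threshold, 70 lost the threshold, 21 gained it and 29 changed direction, none of them past the threshold in the fit reported. Counts of members past the threshold fell under a 2-fold requirement to 3 and 5 (R1881 in LNCaP and C4-2) and 0 and 3 (dual knockdown in LNCaP and C4-2). They fell to 2 and 4 (C4-2 against LNCaP with vehicle and with R1881) and to 4 and 3 (R1881 and dual knockdown responses between the lines). Of all genes, 11.9% and 8.76% met that requirement for R1881 and 0.315% and 4.06% for dual knockdown, in LNCaP and C4-2. Between the lines the shares were 24.2% with vehicle and 23.8% with R1881, and 4.39% and 2.04% for the responses. For dual knockdown in LNCaP the count of 1 became 2 with RLE factors, with DESeq2, with only the groups compared and with the GC trend removed (GRB10 passed), and 0 with all 18 libraries in 1 fit and with glmTreat. Of all genes, 15.5% changed there with RLE factors, 14.7% with DESeq2, 19.9% with only the groups compared and 6.44% with the GC trend removed. The share was 6.13% with all 18 libraries in 1 fit and 0.245% with glmTreat, beside 15.1% in the fit reported. With glmTreat the counts were 3 for dual knockdown in C4-2, 3 between the lines with vehicle and 2 for the knockdown response between the lines. Of all genes, 10.2%, 44.9% and 3.64% passed in those comparisons with glmTreat, beside 24.3%, 58.7% and 11.2% in the fit reported. With vehicle, the lines differed in 3 members with no filter and in 2 with only the groups compared, beside 24.5% and 59.1% of all genes. Leaving out 1 library moved these counts from 6 to 8 (R1881, LNCaP), 7 to 8 (R1881, C4-2), 0 to 2 and 3 to 7 (dual knockdown, LNCaP and C4-2), 3 to 5 and 7 to 8 (lines, vehicle and R1881), 6 to 6 and 3 to 7 (differences in the R1881 and knockdown responses).

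Deviations from the group mean correlated at −0.081 to 0.129 between same-numbered libraries of a line. These values do not settle whether such libraries were paired. With a replicate block the counts were 7 and 7 (R1881), 1 and 6 (dual knockdown), 4 and 7 (lines), and 6 and 7 (differences in response). Of all genes, 46.2% and 35.2%, 16.1% and 27%, 52.6% and 51.3%, and 14.6% and 12.8% passed with the block, in that order. IRS2 between the lines with vehicle lost the threshold (−0.34, adjusted p = 0.24) and IGFBP2 in the knockdown response gained it (−0.59, adjusted p = 0.0169). The values that changed sign were IRS2 with dual knockdown in LNCaP at 0.01, IGFBP5 between the lines with vehicle at −0.18 and GRB10 there at −0.00. IGFBP2 between the lines with R1881 gained the threshold with DESeq2 (adjusted p = 0.0307), no filter (0.0388), the filter at 1 CPM on average (0.0475), the GC trend removed (0.000175) and a fit of both groups alone (0.00324), and in the knockdown response with the GC trend removed (0.0439). In each line, not every library's deviations correlated best with those of its own number. Those of the C4-2 vehicle libraries did so with the C4-2 dual knockdown libraries.

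Other changes of sign were in values near 0. With the GC trend removed, IGFBP5 with R1881 in C4-2 was 0.00 and IGFBP2 between the lines with vehicle −0.18. The latter was −0.00 with DESeq2 and −0.01 at a mean of at least 1 CPM. Over the libraries left out, values ranged from −0.01 to 0.08 (INSR, R1881, LNCaP), −0.32 to 0.25 (IGFBP5, R1881, C4-2), −0.08 to 0.01 (INSR), −0.01 to 0.75 (IGFBP5), −0.08 to 0.11 (IRS1) and −0.07 to 0.10 (IRS2), the last 4 with dual knockdown in LNCaP. They ranged from −0.34 to 0.04 (IGFBP2, dual knockdown, C4-2), −0.14 to 0.11 (IGFBP2), −0.12 to 0.61 (IGFBP5) and −0.14 to 0.79 (PAPPA), the last 3 between the lines with vehicle, and −0.68 to 0.10 (PAPPA, lines, R1881). The difference in R1881 response ranged from −0.19 to 0.05 (IGF1R) and −0.97 to 0.02 (PAPPA). The causes were not tested. Depth limits IGFBP5 and PAPPA, at 1 to 28 counts per library, and the third C4-2 vehicle library.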
